A study of Pinus armandii with 6 samples.

Results

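Seed kernels of Pinus armandii, a white pine with edible seeds, were compared between cones cut at the end of August and cones cut at the end of September, and this account covers the kernel's genes for very long chain lipids, cutin, suberin and wax. The 72 unigenes described here are those of 65117 that the deposited annotation places in the KEGG map of fatty acid elongation (ko00062) or of cutin, suberine and wax biosynthesis (ko00073) and in none of 5 neighbouring lipid maps (ko00061, ko00071, ko00561, ko00564 and ko01040). A unigene is a transcript assembled from the reads, so the transcripts of 1 gene can be divided over several unigenes. Each month had 3 libraries of whole kernels, labelled as biological replicates, from untreated material of the same species and tissue. Strain, tree, cone and seed age are not given by the labels, and p-values therefore cover only the variation among these libraries, which may be partly technical.

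Plants extend fatty acids in the endoplasmic reticulum with a complex in which a 3-ketoacyl-CoA synthase (KCS) makes the condensation and sets the chain length, and a ketoreductase, a dehydratase and an enoyl reductase complete each cycle. The long chains become wax when acyl-CoA reductases (FAR) turn them into alcohols or when the CER1 system turns them into alkanes. Cutin is built mainly from fatty acids that have not been elongated, and suberin also from very long ones. Cytochromes P450 of the CYP86 and CYP77 families and peroxygenases oxidise these chains, and acyltransferases join them to glycerol and to phenolic acids. Cutin and wax seal the outer surface of the embryo and shoot, and suberin seals inner barriers such as those of seed coats and roots. Roles below come from Arabidopsis unless another plant is named, and a symbol marks resemblance to the named gene.

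Libraries held 12849649 to 17379628 estimated counts, and the pairs of libraries within a month differed by more than sampling noise, with a chi-square statistic per unigene of 4.84 to 8.0. Kernel storage and late embryogenesis transcripts summed to 7328 ± 174 CPM (counts scaled to library size, SD, n = 3) in August and 7250 ± 455 in September. Of 12 symbols that mark seed coat, 5 were present, and their unigenes summed to 162 ± 5.68 CPM in August and 134 ± 10.3 in September. Of 14 tested unigenes of that list, 10 were higher (71.4%) and 3 lower (21.4%) in September, beside 35.4% and 32.5% of all tested unigenes. The 5 were ANR, LAR, TT2, AHA10 and DTX41, and the symbols BAN, TT12, TT10, TT8, TT16, LAC15 and TT1 were not annotated. BAN and TT12 are other names of the genes ANR and DTX41, so the absence of a symbol is not the absence of its gene. Epidermis markers outside the 72 unigenes summed to 493 ± 28.5 CPM and 511 ± 17.2 CPM, and ATML1 and PDF1 were not among the annotated symbols. Of 9 tested epidermis unigenes, 4 were higher and 3 lower in September, the 3 by at least 2-fold. The 4 PDF2 unigenes of that list summed to 260 CPM in August and 415 CPM in September, with 3 higher and none lower. All 3 lower epidermis unigenes carried the symbol ACR4, the only other symbol of that list outside the 72 unigenes. The part of these tissues in the results was not tested, and in RNA from whole kernels fewer cells of a type cannot be told apart from less RNA per cell. Unigenes with a best hit in a fixed list of protist and algal genera summed in August to 601, 616 and 295 CPM. In September they summed to 287, 243 and 216 CPM. Fungi, bacteria and animals were not in that list, so the whole non-plant part was not measured.

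The September kernels had more transcript of most wax and elongase unigenes, the cutin hydroxylase CYP86A22 and 4 acyltransferase unigenes (2 HHT1, 2 TAT). They had less of a dominant CYP86B1 unigene. The call of TAT Unigene0057340 did not hold under every alternative (below). Of the 72 unigenes, 51 passed the filter on low counts and were tested with edgeR's quasi-likelihood test. After Benjamini-Hochberg adjustment over all 23216 tested unigenes, 27 were higher in September, 8 were lower and 16 did not pass 0.05. Across all tested unigenes 35.4% were higher and 32.5% lower, against 52.9% and 15.7% of the 51. The share that changed in either direction was 68.6%, close to the 67.8% of all tested unigenes. The median log2 fold change of the 51, September over August, was 0.45, beside 0.03 over all tested unigenes. At least 2-fold changes that also passed the test numbered 17 upward and 5 downward, with 24.3% and 12.4% of all tested unigenes in those classes. The months did not overlap in any library for 38 of the 51, with 72.9% over all tested unigenes. The filter bears on these counts, because 5 of the 51 had fewer than 10 counts in every August library and all 5 were called higher. Among the 46 with 10 counts or more in a library of each month, 22 were higher.

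**Figure D1:**
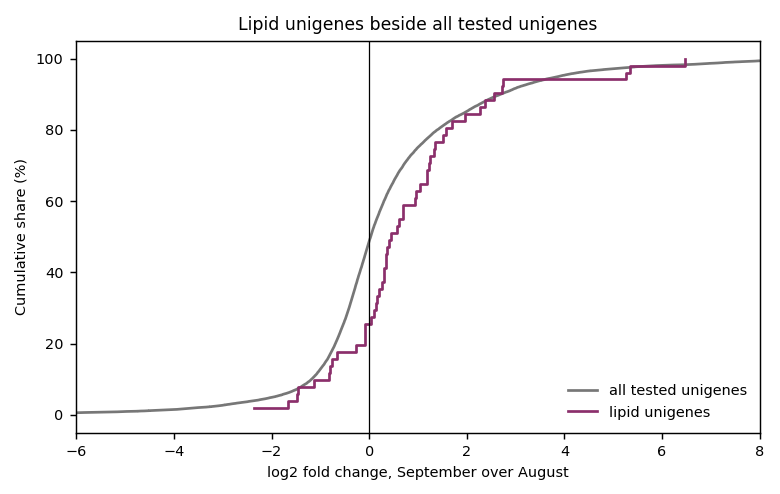
The cumulative share (%) of unigenes at or below each log2 fold change, September over August, is drawn for the 51 tested lipid unigenes and for all 23216 tested unigenes, with values beyond the axis not shown. The lipid curve crosses the middle at 0.45 and the curve of all tested unigenes at 0.03.

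The 21 untested unigenes had between 1 and 52 counts over the 6 libraries and short implied lengths, with a median of 386 bases against 2002 bases for the tested ones. They comprised 6 of 21 KCS unigenes, 5 of 15 CYP86B unigenes and 4 of 11 acyltransferase unigenes. The rest were 3 of 9 peroxygenase unigenes, 2 of 3 thioesterase unigenes and 1 of 3 CER1 unigenes. No tests are available for the 21. In the elongation map, 11 of 16 tested unigenes were higher and 1 was lower. In the cutin, suberine and wax map, 16 of 35 were higher and 7 lower.

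Summed over all 72 unigenes, the August level was 1859 ± 24.1 CPM and the September level 1823 ± 29.1 CPM (SD, n = 3), while the make-up of the sum differed. CYP86B1 Unigene0073021 gave 22.2% ± 1.85 of it in August and 4.43% ± 0.145 in September. Without that unigene the August sum was 1447 CPM and the September sum 1743 CPM. The sums of single families are given as descriptions, with no test.

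**Figure D2:**
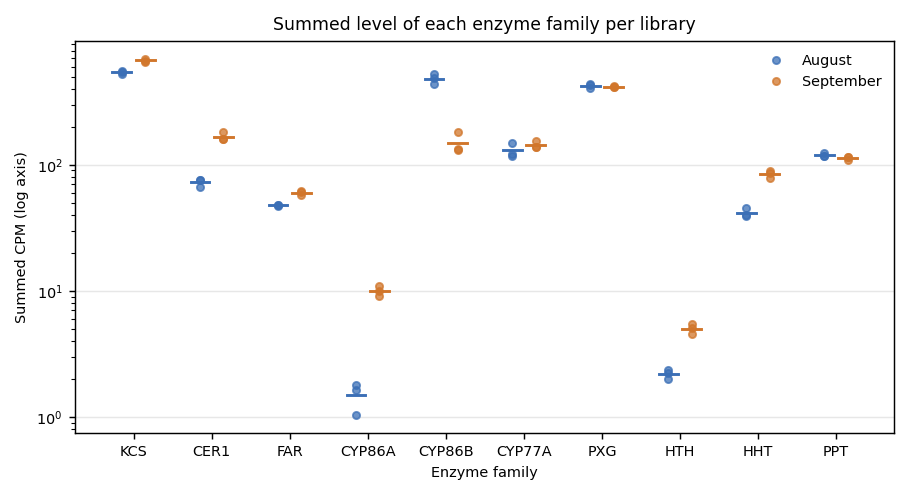
Summed CPM of each enzyme family on a log axis, with 1 point for each library and a bar at the mean of the 3 libraries of a month. KCS, CER1, FAR, CYP86A, HTH and HHT sums are higher in every September library than in any August library. CYP86B and PPT (thioesterase) sums are lower in every September library, and CYP77A and PXG (peroxygenase) sums overlap.

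KCS enzymes decide which chain lengths a cell can make, and 11 of 15 tested KCS unigenes rose by September, 1 fell and 3 did not pass. Some of the 11 calls were weak, and others are given below. That of KCS9 Unigene0005931 was lost whenever 1 library was left out, without the count filter and in DESeq2. The call of KCS1 Unigene0014528 was lost without August library 1 or 3, or September library 2 or 3. In August the summed level of all 21 KCS unigenes was 544, 525 and 555 CPM, and in September it was 696, 668 and 658 CPM, so the months did not overlap. The KCS unigene of highest CPM in August went against this direction. KCS11 Unigene0048647 stood at 226, 246 and 263 CPM in August and at 157, 152 and 154 CPM in September. Every September library lay below every August library. The level fell by 0.66 on the log2 scale (SE 0.0648, adjusted p = 1.19e-05). Its best database hit was a poppy protein. The other KCS11 unigene, Unigene0027477, had a log2 fold change of -0.09 and did not pass (adjusted p = 0.675).

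FIDDLEHEAD (FDH) is the epidermal KCS whose loss makes organs fuse. FDH Unigene0073155 was measured at 75.9, 60.2 and 55.6 CPM in August and at 206, 185 and 178 CPM in September. The September libraries lay far above all August libraries, with a log2 fold change of 1.57 (SE 0.110, adjusted p = 1.32e-06). FDH Unigene0073153, which has the same best hit, stood at 6.24, 5.41 and 3.24 CPM and then at 24.9, 21.5 and 25.7 CPM, a log2 fold change of 2.27 (SE 0.207, adjusted p = 7.56e-06). Summed over both, the counts of this hit rose by 1.66 on the log2 scale (adjusted p = 9.89e-07). These unigenes therefore moved the same way, alone and as a sum.

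KCS9 makes very long acyl chains that feed wax, suberin and membrane lipids. KCS9 Unigene0053259 went from 13.4, 10.1 and 13.6 CPM in August to 44.1, 38.8 and 37.5 CPM in September, a rise of 1.70 on the log2 scale (SE 0.129, adjusted p = 2.2e-06). The unigene that shares its best hit, KCS4 Unigene0000967, had a log2 fold change of 0.14 and did not pass (adjusted p = 0.391). The sum of both rose by 1.16 (adjusted p = 1.93e-06). CUT1, also called CER6, is the main wax KCS of the shoot surface. CUT1 Unigene0032945 had 0.125, 0 and 0.127 CPM in August and 3.88, 3.69 and 3.39 CPM in September (log2 fold change 5.25, SE 0.497, adjusted p = 9.79e-06). It was near 0 in all August libraries and close to 4 CPM in all September libraries. KCS1 Unigene0000433 had 1 count over the August libraries and 123 over the September libraries, a ratio of 124 with an exact 95% counting interval of 21.9 to 4956 (adjusted p = 5.12e-05).

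The other abundant KCS unigenes rose by little. KCS4 Unigene0028003 stood at 88.7, 81.9 and 92.7 CPM in August and at 102, 109 and 106 CPM in September. The months were apart by a narrow margin, with a log2 fold change of 0.26 (SE 0.0660, adjusted p = 0.00518). KCS1 Unigene0024600 and Unigene0069210 had log2 fold changes of 0.21 and 0.34, and KCS12 Unigene0032674 one of 0.41. Their adjusted p-values were 0.0365, 0.0114 and 0.0159, and each of these calls was lost when 1 or more of the libraries was left out. The call of Unigene0024600 was also lost without the count filter (adjusted p = 0.137) and in DESeq2 (adjusted p = 0.0547), and that of Unigene0069210 when unigenes of its best hit were summed (adjusted p = 0.0996).

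**Figure D3:**
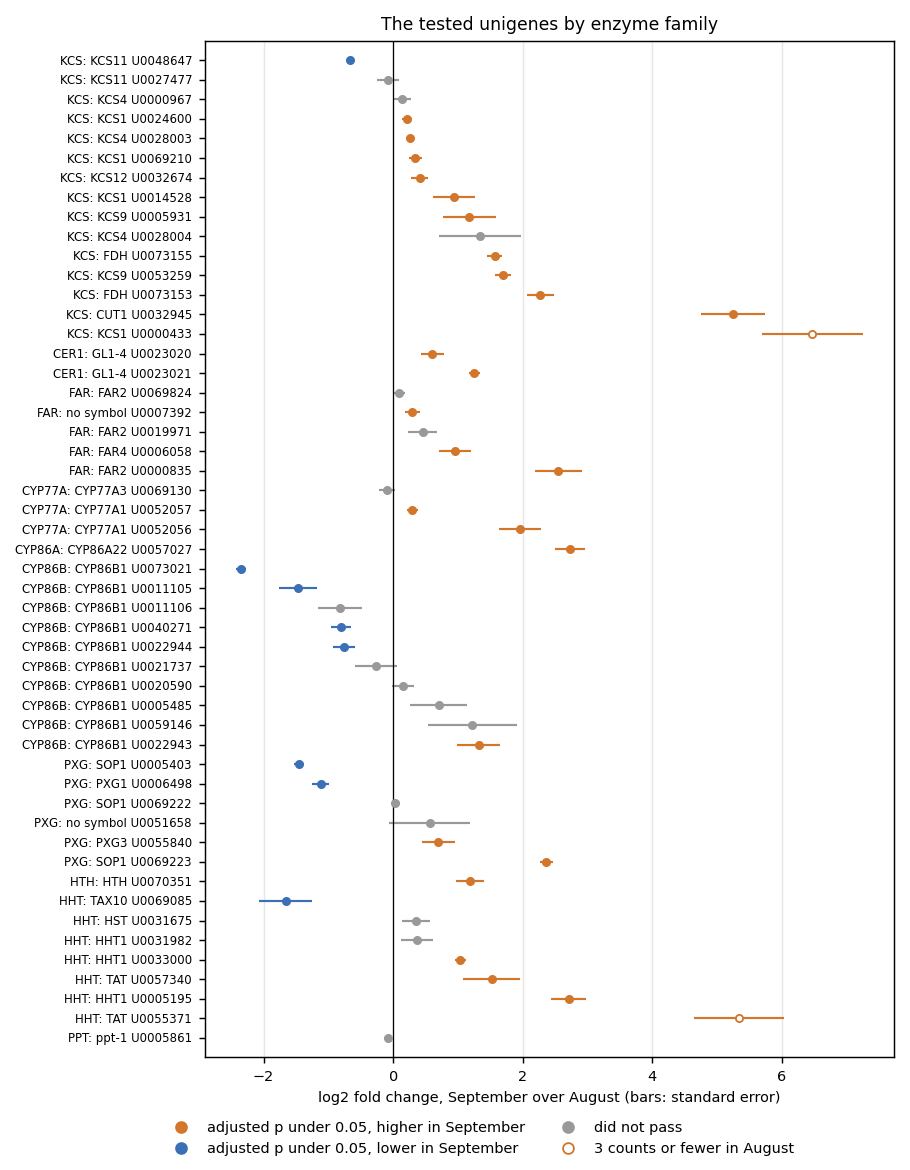
Log2 fold change, September over August, with its standard error for each of the 51 tested unigenes, grouped by enzyme family and coloured by the call at an adjusted p of 0.05; open points had 3 counts or fewer in August. Most KCS points lie to the right of 0 with KCS11 Unigene0048647 at -0.66, and CYP86B1 points lie on both sides, from -2.35 to 1.32.

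The later steps of the elongation cycle lie in unigenes that the annotation also assigns to other lipid maps, so they are outside the 72 and are given for comparison. Of 10 tested unigenes that carry such another map, 4 were higher and 4 lower, and not all of them are later steps. The higher ones include Unigene0027010 and Unigene0027011, which have no symbol and share a best hit. CYP704B1 Unigene0069702, a P450, was also higher, a call lost in 4 of 6 fits with a library left out. The lower ones include Acot8 Unigene0003600. KCR1, the ketoreductase, rose by 0.49 on the log2 scale (Unigene0073047, adjusted p = 0.00033). The dehydratase PAS2 fell by 0.54 (Unigene0055798, adjusted p = 7.05e-05). The enoyl reductase ECR (Unigene0075453) stood at 296, 239.5 and 169 CPM in August and at 157, 131 and 125 CPM in September, and fell by 0.77 on the log2 scale (adjusted p = 0.00241). The August libraries of ECR were widely spread, and all lay above the September libraries.

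Among the unigenes assigned to wax-forming enzymes, 5 of 7 tested rose and none fell. The 5 include Unigene0007392, whose best hit was a SET domain protein and whose call was often lost (below). GL1-4 is the rice name of a CER1-like protein, and CER1 is the alkane-forming enzyme of cuticular wax. GL1-4 Unigene0023021 was at 69.0, 60.4 and 67.8 CPM in August and at 173, 151 and 147 CPM in September. Each September library was more than 2-fold above each August library, and the log2 fold change was 1.25 (SE 0.0813, adjusted p = 8.11e-07). The less abundant GL1-4 Unigene0023020 rose by 0.60 (adjusted p = 0.0119), and this call was lost without September library 3 (adjusted p = 0.0515). The 3 CER1 unigenes share a best hit, and as a sum that hit rose by 1.23 on the log2 scale (adjusted p = 8.43e-07).

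Fatty acyl-CoA reductases make the primary alcohols of wax and, in anthers, of the pollen wall. FAR2 Unigene0069824, the most abundant, was at 24.6, 25.7 and 26.0 CPM and then at 28.2, 28.3 and 25.1 CPM. The months overlapped, and the log2 fold change of 0.10 did not pass (adjusted p = 0.37). FAR2 Unigene0000835 went from 0.312, 0.741 and 0.826 CPM to 3.40, 4.32 and 3.31 CPM, a rise of 2.55 on the log2 scale (SE 0.369, adjusted p = 0.000168). FAR4, which makes alcohols of suberin in roots, rose by 0.96 (Unigene0006058, adjusted p = 0.00631). A unigene with no symbol, Unigene0007392, was placed in this family by KEGG while its best hit was a SET domain protein, and its implied length was 7746 bases. It stood at 16.4, 14.01 and 13.6 CPM and then at 18.0, 17.5 and 18.5 CPM (log2 fold change 0.29, SE 0.117, adjusted p = 0.0465). That call was lost in 5 of 6 fits with a library left out, without the count filter (adjusted p = 0.195) and in DESeq2 (adjusted p = 0.0898).

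The oxygenases, which add the hydroxyl and epoxide groups that link cutin and suberin monomers, were divided, with 6 higher, 6 lower and 8 not passing of 20 tested. CYP86A enzymes hydroxylate the end of fatty acid chains for cutin, and CYP86A22 is a Petunia enzyme that does so in the stigma. CYP86A22 Unigene0057027 was at 1.62, 1.04 and 1.78 CPM in August and at 9.94, 9.05 and 10.96 CPM in September, with a log2 fold change of 2.73 (SE 0.231, adjusted p = 4.55e-06). All September libraries were far above all August libraries.

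CYP86B1 hydroxylates very long chains for root and seed coat suberin. Of 10 tested unigenes of its family, 4 fell (40%), 1 rose (10%) and 5 did not pass. Over all tested unigenes 32.5% fell and 35.4% rose, so the share with a fall was near that of all. CYP86B1 Unigene0073021 was at 369.7, 447 and 420.4 CPM in August and at 79.2, 84.1 and 79.3 CPM in September. The September libraries were close to each other and far below every August library, with a fall of 2.35 on the log2 scale (SE 0.0775, adjusted p = 2.17e-08). Its best hit was a coconut protein. Unigene0022944, Unigene0040271 and Unigene0011105 fell by 0.76, 0.81 and 1.47 on the log2 scale, with adjusted p-values of 0.0026, 0.00131 and 0.00138. Unigene0022943, which shares its best hit with Unigene0022944, rose by 1.32 (adjusted p = 0.00511) from a mean of 0.663 CPM, a call lost without the count filter (adjusted p = 0.0521). The sum of both fell by 0.50 on the log2 scale (adjusted p = 0.0198).

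With Unigene0073021 set aside, the CYP86B family summed to 65.2, 75.2 and 64.5 CPM in August and to 51.3, 98.9 and 55.0 CPM in September, and the months overlapped. The high September value came from September library 2, in which CYP86B1 Unigene0005485 reached 56.5 CPM, beside 13.8 and 17.6 CPM in the other September libraries and 14.2, 21.6 and 18.9 CPM in August. This unigene did not pass (log2 fold change 0.70, adjusted p = 0.184). Without September library 2 its log2 fold change was -0.22 (adjusted p = 0.35), and without September library 1 it was 1.05 and passed (adjusted p = 0.0348). It shares its best hit with Unigene0040271, and their sum did not pass (log2 fold change 0.31, adjusted p = 0.466).

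CYP77A enzymes oxidise cutin monomers in mid-chain. CYP77A1 Unigene0052057 was at 68.5, 62.3 and 72.6 CPM in August and at 78.2, 79.1 and 93.2 CPM in September. The months were apart by a narrow margin, with a log2 fold change of 0.30 (SE 0.0877, adjusted p = 0.0121), and the call was lost without August library 2 (adjusted p = 0.0639) or September library 3 (adjusted p = 0.0523). CYP77A1 Unigene0052056, which was rarer, rose by 1.96 (adjusted p = 0.000413). CYP77A3 Unigene0069130 was at 53.2, 54.9 and 76.1 CPM and then at 56.7, 57.8 and 58.6 CPM, and did not pass (adjusted p = 0.534).

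Peroxygenases of the caleosin family epoxidise fatty acids and also sit on the surface of seed oil bodies, and SOP1 is the sesame name of a caleosin. Of 6 tested, 2 rose, 2 fell and 2 did not pass. PXG3 Unigene0055840, counted as a rise, was at 4.87, 6.75 and 10.7 CPM in August and at 13.7, 10.2 and 12.3 CPM in September. Its months overlapped, and its call was lost without August library 1 or 2, or September library 1 or 3. SOP1 Unigene0069222 was at 313, 310.5 and 267 CPM in August and at 315, 298 and 296 CPM in September. The months overlapped and the log2 fold change was 0.03 (SE 0.0700, adjusted p = 0.723). The sign of this small value changed under other processing. SOP1 Unigene0069223, with the same best hit, was at 11.6, 12.2 and 10.5 CPM and then at 53.5, 60.5 and 62.4 CPM, a rise of 2.36 (SE 0.0992, adjusted p = 7.87e-08). The ratio of counts of the first to the second in August was 27.0, 25.5 and 25.3 by library, against 5.88, 4.92 and 4.75 in September, so the balance between them differed in every library pair across months. Their sum went from 308 to 362 CPM and rose by 0.26 on the log2 scale (adjusted p = 0.00541).

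Another SOP1 unigene and PXG1 moved the other way. SOP1 Unigene0005403 stood at 68.9, 69.1 and 72.3 CPM in August and at 24.6, 27.5 and 24.5 CPM in September, and fell by 1.46 on the log2 scale (SE 0.0770, adjusted p = 2.31e-07). PXG1 Unigene0006498, like the Arabidopsis caleosin of embryo oil bodies, stood at 33.4, 31.9 and 40.4 CPM and then at 15.9, 18.4 and 14.1 CPM, and fell by 1.12 (SE 0.130, adjusted p = 3.74e-05). Neither overlapped between months. The family as a whole held 423 ± 17.0 CPM in August and 417 ± 5.54 CPM in September.

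**Figure D4:**
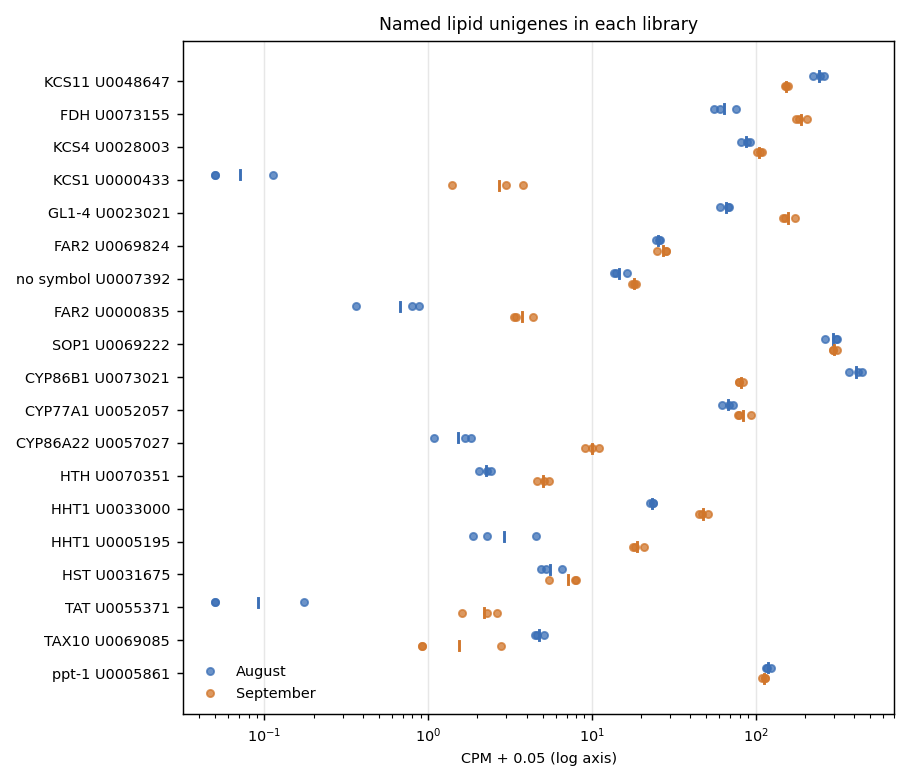
CPM + 0.05 on a log axis for 19 named unigenes in each of the 6 libraries, with a bar at the mean of each month. The months are apart for most unigenes and overlap for FAR2 Unigene0069824, SOP1 Unigene0069222 and HST Unigene0031675.

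HOTHEAD (HTH) is linked to the oxidation of omega-hydroxy fatty acids to the diacids of cutin, and its loss fuses floral organs as that of FDH does. HTH Unigene0070351 was at 2.37, 2.00 and 2.22 CPM in August and at 5.04, 5.42 and 4.57 CPM in September. The September libraries were all above the August libraries, with a log2 fold change of 1.18 (SE 0.222, adjusted p = 0.000883).

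HHT1, HST and the yew symbols TAT and TAX10 stand for acyltransferases of the BAHD family, whose member HHT1 adds ferulate to omega-hydroxy acids of suberin. HST joins hydroxycinnamate to shikimate in lignin synthesis, and TAT and TAX10 act on taxanes in yew, so KEGG's grouping covers enzymes with other substrates. Of 7 tested, 4 rose, 1 fell and 2 did not pass, and the family summed to 41.5 ± 3.24 CPM in August and to 84.4 ± 6.04 CPM in September. HHT1 Unigene0033000 was at 23.6, 22.6 and 23.7 CPM and then at 51.5, 46.7 and 45.3 CPM, a rise of 1.04 (SE 0.0838, adjusted p = 3.4e-06). HHT1 Unigene0005195 was at 4.49, 2.22 and 1.84 CPM and then at 18.4, 17.7 and 20.7 CPM, a rise of 2.71 (SE 0.270, adjusted p = 1.38e-05). Both were higher in every September library than in any August library.

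HST Unigene0031675, which has the best hit of the second HHT1 unigene, was at 6.49, 5.19 and 4.83 CPM and then at 7.97, 5.42 and 7.80 CPM, and did not pass (log2 fold change 0.35, adjusted p = 0.164). Summed over the unigenes with that hit, the level went from 8.62 to 26.6 CPM, a rise of 1.65 (adjusted p = 1.99e-05). TAT Unigene0055371 had 2 counts over the August libraries and 93 over the September libraries, a ratio of 47.1 with an exact 95% counting interval of 12.7 to 394 (adjusted p = 8.34e-05). The other TAT unigene, Unigene0057340, went from a mean of 0.383 to 1.10 CPM, a rise of 1.52 (SE 0.439, adjusted p = 0.011). Its call was lost without August library 1 or September library 1, without the count filter and in DESeq2 (adjusted p = 0.0528). TAX10 Unigene0069085 was at 5.05, 4.60 and 4.45 CPM and then at 2.72, 0.864 and 0.867 CPM, and fell by 1.66 (SE 0.409, adjusted p = 0.00475). The September libraries of TAX10 were uneven, and all lay below the August libraries. Without September library 1 its log2 fold change was -2.43 (adjusted p = 0.000131).

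The symbol ppt-1 marks a palmitoyl-protein thioesterase, an enzyme known from animals that takes fatty acids off proteins in lysosomes and that shares the elongation map. Its Unigene0005861 was at 123, 118 and 116 CPM in August and at 109, 115 and 114 CPM in September. The months did not overlap, and the log2 fold change of -0.08 did not pass (adjusted p = 0.231).

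On the per-length scale of the authors' FPKM values, which allows levels of different genes to be compared, CYP86B1 Unigene0073021 stood highest in August at 223 FPKM. SOP1 Unigene0069222 followed at 94.5 FPKM, ppt-1 at 83.8, KCS11 Unigene0048647 at 57.0 and CYP77A3 at 32.1. SOP1 Unigene0069222 and ppt-1 overlapped across August libraries, as did CYP77A3, SOP1 Unigene0005403 (31.5), FDH Unigene0073155 (29.4) and CYP77A1 Unigene0052057 (25.9), each with its neighbour in this order. In September the order began with SOP1 Unigene0069222 at 96.1 FPKM, FDH Unigene0073155 at 86.9, ppt-1 at 79.0, GL1-4 Unigene0023021 at 58.1 and CYP86B1 Unigene0073021 at 43.5. SOP1 Unigene0069222 and FDH overlapped across September libraries, and GL1-4 and CYP86B1 did not. FDH thus moved from 7th to 2nd place and CYP86B1 from 1st to 5th.

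The rest of the cutin, suberin and wax pathway was read from a list of gene symbols outside the 72 unigenes. It held 57 unigenes, of which 40 were tested, 23 rose (57.5%) and 7 fell (17.5%), with a median log2 fold change of 0.42. Over all tested unigenes 35.4% rose and 32.5% fell, with a median of 0.03. Without the symbol WIN1, carried here by hevein-like wound proteins, 39 were tested, with 23 higher and 7 lower. GPAT6, which makes the glycerol-bound monomer of cutin, was at 2.43, 1.41 and 1.84 CPM in August and at 19.5, 21.5 and 19.9 CPM in September (Unigene0002890, log2 fold change 3.40, adjusted p = 3.05e-07). All September libraries of GPAT6 were far above all August libraries. RAM2, a glycerol acyltransferase known from Medicago, was the most abundant of this step and rose by 0.71 (Unigene0014699, adjusted p = 0.000144). The other tested unigene of the step, RAM2 Unigene0044008, fell by 0.45 (adjusted p = 0.00317), so 2 of 3 rose and 1 fell.

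DCR is a BAHD acyltransferase needed for cutin polyester, and of 7 tested DCR unigenes 5 rose and 2 fell. DCR Unigene0022715 went from 9.36, 8.67 and 6.10 CPM to 57.0, 58.4 and 55.9 CPM (log2 fold change 2.83, adjusted p = 1.48e-07), while DCR Unigene0073887, the more abundant in August, fell by 0.87 on the log2 scale (adjusted p = 0.00012). These and other unigenes with the same best hit summed to 61.6 CPM in August and 83.7 CPM in September (log2 fold change 0.47, adjusted p = 0.000488). Unigenes with the same hit thus moved in opposite directions in DCR.

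Of 9 tested exporters of cuticle lipids, 6 rose and 3 did not pass. The most abundant, ABCG11 Unigene0006342, had a log2 fold change of -0.22 and did not pass (adjusted p = 0.0958). It passed as lower without the count filter (log2 fold change -0.26, adjusted p = 0.0232) and without September library 1 (-0.34, adjusted p = 0.00694). ABCG11 Unigene0014662 did not pass either (adjusted p = 0.23) and was lower without September library 3 (log2 fold change -0.94, adjusted p = 0.00835). ABCG11 Unigene0002030 rose by 0.83 (adjusted p = 0.0126), a call lost without August library 1 (adjusted p = 0.0615). ABCG11 Unigene0051783 had no counts in August and 53 in September, which makes it at least 17.9-fold higher against a floor of 3 counts over the 3 August libraries. The 3 unigenes with its best hit summed to 58.9 CPM in August and 26.4 CPM in September, a fall of 1.13 on the log2 scale (adjusted p = 3.51e-05).

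Of 8 tested regulators, with WIN1 left out, 5 rose and 3 did not pass. PDF2, a homeodomain factor of the epidermis, rose by 0.83 (Unigene0002531, adjusted p = 1.95e-06) from 175, 175 and 190.2 CPM to 328, 302 and 331 CPM. Acyl-CoA synthetases, which activate free fatty acids, were divided into 3 higher and 3 lower of 7 tested. LACS9 Unigene0037783 fell by 0.37 (adjusted p = 9.78e-05) and LACS4 Unigene0041970 rose by 0.78 (adjusted p = 2.42e-05). ACC1, the carboxylase that supplies malonyl-CoA for elongation, rose by 0.42 (Unigene0071651, adjusted p = 0.00118).

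**Figure D5:**
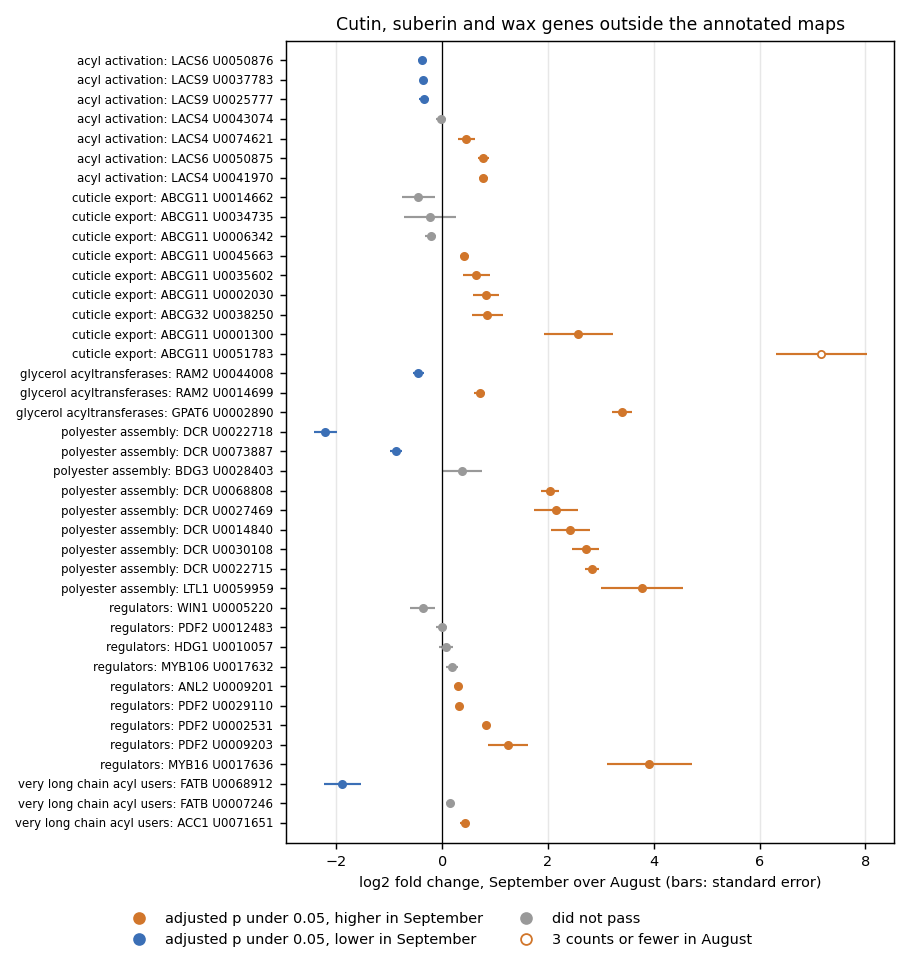
Log2 fold change, September over August, with its standard error for the 40 tested unigenes of the symbol list outside the 72, grouped by step of the pathway; the open point had 3 counts or fewer in August. The group of regulators includes the WIN1 symbol at -0.37, which did not pass, and the DCR points run from -2.21 to 2.83.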

How the data were processed

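RNA was sequenced from seed kernels of 6 libraries, 3 per harvest month. The submitters' processing notes name fastp and RSEM. Neither their versions nor the assembler or strandedness is given in the sources used. Values deposited per unigene and library are estimated counts without normalization and the authors' FPKM, which were used only to compare levels between genes. Counts were rounded, which altered 8 of 390702 values. Implied lengths are the ratio of count to FPKM.

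Tests used edgeR 4.0.16 in R 4.3.3 with TMM factors (0.993 to 1.01), filterByExpr by month (minimum count 10, minimum total 15), trended dispersion, and the two-sided quasi-likelihood F test, with p-values adjusted by Benjamini-Hochberg (threshold 0.05) over all 23216 tested unigenes. The procedure was tested on simulated data. Standard errors came from the F statistic. CPM is relative to counts in tested unigenes times the TMM factor. A month with no counts was set to a floor of 3 counts over its libraries, and 1 to 3 counts were given as a ratio with an exact 95% interval; both cover counting error only. DESeq2 1.42.0, other normalization, no filter, omitted libraries, summed best hits and other member rules were alternatives.

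Named unigenes were, per role class, the 3 of highest mean CPM and the passing ones with the largest rise and fall (mean of 1 CPM or more), and in the symbol list the most abundant and the most changed of each group (mean of 5 CPM or more). Others named share a best hit, map or family with these and were chosen after their values were seen. Members and lists were chosen with earlier results of these data known.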

Additional observations from a re-analysis of the deposited data

How the results depend on the processing

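The counts among the 51 tested unigenes kept within 1.5 times their value under every alternative run. Leaving out 1 library at a time gave 20 to 24 higher and 8 to 9 lower, and medians of 0.40 to 0.52 for the log2 fold change. The other settings gave 21 higher and 7 lower with unigenes of 1 best hit summed, 24 and 8 with no count filter, 23 and 8 in DESeq2, 27 and 8 with DESeq2's size factors in edgeR, 26 and 8 for named enzyme families alone, and 31 and 12 with no exclusion of other lipid maps. Of 35 calls, 25 held in all 6 fits with a library left out, 17 higher and 8 lower. Of 209 values of named unigenes under alternatives, 195 kept their direction and side of the threshold, 10 no longer passed, 2 passed where they had not (HST and SOP1, with same-hit unigenes summed) and 2 changed sign. Those were SOP1 Unigene0069222, with log2 fold changes of -0.012 with no filter (adjusted p = 0.903) and -0.070 without August library 3 (adjusted p = 0.306), the lowest of a range up to 0.052 over the libraries left out; the cause was not tested. The run of the symbol list without WIN1 was added once the data had been seen. The replicate block gave 24 higher and 8 lower, with 8027 and 7401 over all tested unigenes and 22 and 9 in the symbol list. It lost the calls of Unigene0007392 (adjusted p = 0.0617), KCS1 Unigene0024600 (0.0556) and KCS9 Unigene0005931 among the 72. In the symbol list ABCG11 Unigene0006342 (0.0105) and Unigene0014662 (0.0414) passed as lower and Unigene0035602 (0.0622) no longer passed. Replicate numbers were not taken to pair libraries, since same-numbered libraries had correlations of deviations from month means of 0.09, 0.04 and 0.03, and not every library correlated best with its own number. The 21 untested unigenes had at most 52 counts over the 6 libraries, which allows no call for them.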

Other observations

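September library 2 was at least 2-fold above the mean of the other September libraries in 3 of the 51 tested unigenes (5.88%), beside 2.01% of all tested unigenes. These were CYP86B1 Unigene0005485, KCS4 Unigene0028004 and Unigene0051658, a peroxygenase with no symbol. KCS4 Unigene0028004 stood at 3.34 CPM in that library and at 0.953 and 0.867 CPM in the others. Unigene0051658 stood at 3.28 CPM there and at 0.749 and 2.05 CPM in the others. None of the 3 passed the test between months. August library 2 was at least 2-fold above the other August libraries in 0 of the 51, beside 3.07% of all tested unigenes.

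The best hit was a gymnosperm protein for 49 of the 72 unigenes. Of those, 38 were tested, 21 were higher in September and 5 lower. The other 23 had 13 tested unigenes, with 6 higher and 3 lower. Among the lower ones were CYP86B1 Unigene0073021 and KCS11 Unigene0048647, which had the highest CPM of their families in August.

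The 3 unigenes whose pattern over the 6 libraries was most like that of SOP1 Unigene0069222, the unigene of highest mean CPM, were a pentatricopeptide protein (At2g30780), the ribosome export factor nmd3 and the actin ACT7. Their Pearson correlations of log2(CPM + 1) with it were 0.949, 0.892 and 0.851, the highest among 1616 unigenes with 20 CPM or more. The values share libraries and scaling, and the ranking is a description.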
